A study of Ovis aries with 10 samples.

Results

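The miR-29 family was represented on the ovine array by 2 of its 152 miRNA probes, oar-miR-29a and oar-miR-29b, which were taken by name and followed on all 10 arrays. Each array was hybridised with total RNA from 1 caudal lung segment, and the 5 sheep numbered 2, 3, 6, 7 and 10 each gave 1 segment labelled Fibrosis and 1 labelled Normal. The animals were female merino sheep, aged 9 months by the labels, given bleomycin by bronchoscope into 1 caudal segment and saline into the opposite one. Infusions were given in 2 doses, 2 weeks apart, and the animals were euthanised at the end of week 4. They had been chosen from a larger group for the most severe lung fibrosis, so both groups came from the same, strongly affected animals. The Normal segment was a saline-infused part of the opposite lung of a treated animal and not the lung of an untreated one. The labels placed the fibrotic segment on the left in sheep 2 and 3 and on the right in sheep 6, 7 and 10, whereas the methods describe bleomycin on the left in every sheep. Groups follow the labels. Values with bleomycin assigned to all left segments are given for the miR-29 probes, the cell type markers and the fibrosis-list members whose changes are printed. They are also given for the family pairs that went 1 way in all 5 sheep. This assignment reverses the changes of sheep 6, 7 and 10 and keeps those of sheep 2 and 3. A value that went 1 way in all 5 sheep by the labels therefore has to go both ways under it.

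MicroRNAs of the miR-29 family pair through a shared seed near their 5′ end with sites in messenger RNAs of collagens, elastin, fibrillin and other matrix proteins, and they lower the output of those transcripts. In lung and other organs the family is known as a brake on matrix production, and transforming growth factor β is known to repress it in fibroblasts. The mature members have the same seed and differ at few positions, so the extent to which either probe also bound the other member was not tested. RefSeq annotation of the sheep assembly ARS-UI_Ramb_v3.0 listed 1 gene for miR-29a, MIR29A, and 2 genes for miR-29b, MIR29B-1 and MIR29B-2, which lay on another chromosome than MIR29A. MIR29A lay within the span of a long non-coding RNA gene, with KLF14 as its nearest protein-coding gene. MIR29B-1 lay within the span of a different long non-coding RNA gene, and CD46 stood between it and MIR29B-2. The signal of the miR-29b probe cannot be assigned to either of its genes. Coordinates are not given because no build is named for the array.

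The deposited values were background-corrected intensities on a linear scale in arbitrary units. The summed intensity of the miRNA probes lay between 138979 and 146225 on the 10 arrays, while the median of the 55 control probes ranged from 72.0 to 289. Of the markers that could show other cell types, oar-miR-200a, oar-miR-200b and oar-miR-200c, which mark epithelium, were all measured, and their summed intensity was 2400 to 4319 in normal and 3496 to 6712 in fibrotic segments, higher in the fibrotic segment of 5 of 5 sheep and, with bleomycin assigned to all left segments, in 2 of 5. The mesenchymal and smooth muscle list was represented by oar-miR-143 and oar-miR-199a-3p (2 of 4 listed). Their sum was 5564 to 20054 in normal and 8483 to 16264 in fibrotic segments. It was higher in the fibrotic segment of 3 of 5 sheep, and of 4 of 5 with bleomycin assigned to all left segments. Taken singly, oar-miR-143 was higher in 3 of 5 and oar-miR-199a-3p in 5 of 5, or in 4 and 2 with the left segments. The leukocyte list was represented by oar-miR-150 alone (1 of 4 listed), at 445 to 2107 in normal and 309 to 1985 in fibrotic segments. For striated muscle only oar-miR-133 was measured (1 of 3 listed), at 35.2 to 162 and 23.5 to 49.3. In the fibrotic segment oar-miR-150 was higher in 1 of 5 sheep and oar-miR-133 in 2, or in 2 and 3 with the left segments. None of these markers was below 1 on all arrays, and neither of the 2 red blood cell markers had a probe of its listed name. The part of cell composition in the miR-29 values was not tested, and in tissue RNA fewer cells of a type and less RNA per cell cannot be told apart.

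MiR-29a was lower in the fibrotic than in the normal segment of every sheep. In the normal segments its intensity was 4294, 2678, 5633, 3001 and 4329 for sheep 2, 3, 6, 7 and 10. In the fibrotic segments of the same animals, in the same order, it was 3740, 2228, 4278, 2921 and 4168. Sheep 6 had the highest value and sheep 3 the lowest in both conditions, and the ranges of the groups overlapped, so that the normal segments of sheep 3 and 7 lay below the fibrotic segments of sheep 2, 6 and 10. In this order of the sheep, the fibrotic value was 0.871, 0.832, 0.759, 0.973 and 0.963 of the normal one. Only 1 value was deposited per probe and array, so a difference within 1 animal, such as the small ones of sheep 7 and 10, has no error of its own.

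Averaged over the sheep, miR-29a in fibrotic segments stood at 0.876 times its normal level, a log2 fold change of -0.19 with a standard error of 0.12 in limma and an adjusted p of 0.530 over the 152 miRNAs. Limma pools variance across probes, and the plain standard error over the 5 sheep was 0.067. An exact permutation test that flips the signs of the 5 within-sheep changes (two-sided) gave p = 0.0625, the smallest value that 5 sheep allow. Limma called 0 of the 152 miRNAs (0%) at an adjusted p under 0.05, and 18 had an unadjusted p under 0.05. The methods' t-test, which the study ran within each sheep and which was run here over the 5 sheep because each array has 1 value per probe, also called 0 miRNAs after adjustment. At the study's threshold, an unadjusted p under 0.01, it called 1 miRNA when paired and 2 when unpaired, against 0 in limma, and an unadjusted p under 0.05 was reached by 9 and 6. A lower value in all 5 sheep was found for 8 of the 152 miRNAs (5.26%), miR-29a among them.

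**Figure D1:**
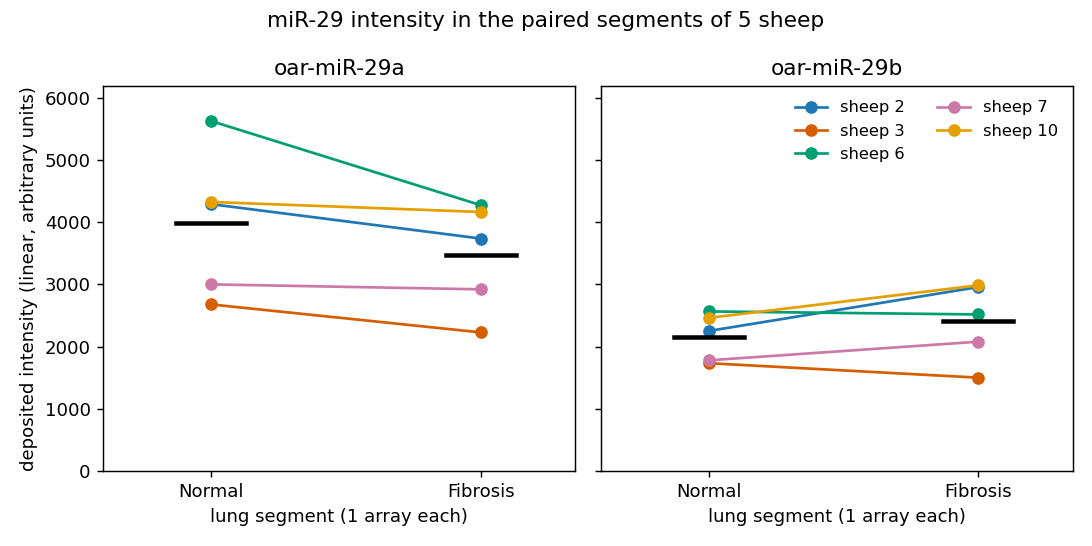
Deposited intensity (linear scale, arbitrary units) of oar-miR-29a (left) and oar-miR-29b (right) in the normal and fibrotic segment of each sheep, with points for arrays, lines joining the segments of 1 sheep and black bars for the mean of 5. The lines of miR-29a slope down in all 5 sheep, from 5633 to 4278 in sheep 6, while those of miR-29b slope up in sheep 2, 7 and 10.

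MiR-29b, which carries the same seed, did not share this direction in all animals. Its intensity in the normal segments was 2250.0, 1731, 2565, 1777 and 2461 for sheep 2, 3, 6, 7 and 10. In the fibrotic segments, in this order, it was 2957, 1498, 2516, 2078 and 2986. The fibrotic segment was the brighter one in sheep 2, 7 and 10, at 1.31, 1.17 and 1.21 times the normal value, and the dimmer one in sheep 3, at 0.865 times. In sheep 6 both segments were nearly equal, at a ratio of 0.981. The groups overlapped again, and sheep 3 had the lowest miR-29b of both conditions, as it had for miR-29a.

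The mean log2 fold change of miR-29b was 0.13 with a standard error of 0.14 in limma and 0.11 over the sheep, and its limma adjusted p was 0.620. The exact sign-flip test gave a two-sided p of 0.313. Neither member therefore passed a threshold, and the plot of change against signal shows both within the spread of the 152 miRNAs, whose median log2 fold change was -0.021. Of all miRNAs, 48 had a lower mean change than miR-29a and 101 a lower one than miR-29b. Among the 59 with a mean log2 intensity of at least 5, whose median was -0.066, these counts were 14 and 44.

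**Figure D2:**
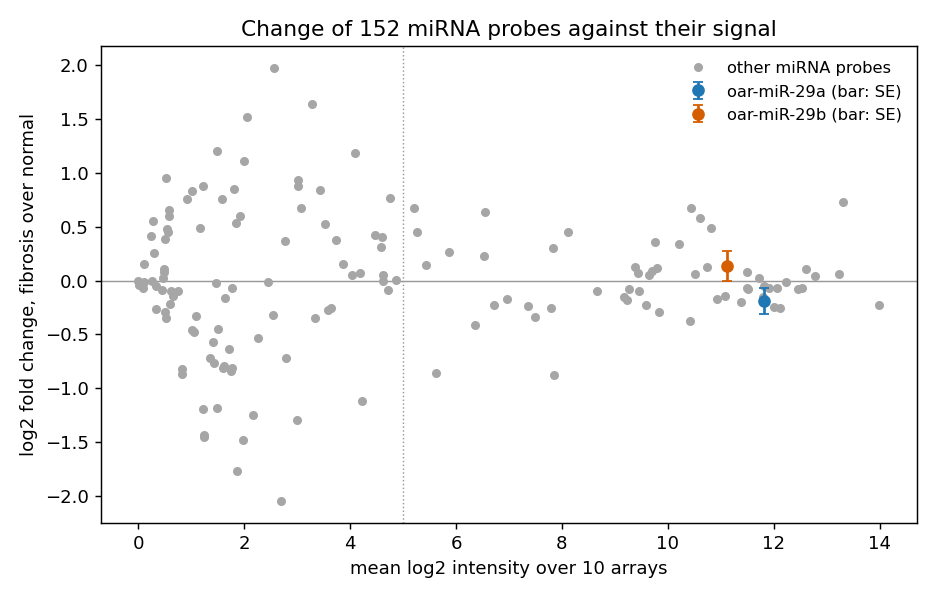
Mean log2 fold change of the fibrotic over the normal segment (5 sheep) against the mean log2 intensity over 10 arrays, with 1 point for each of 152 miRNA probes, bars for the limma standard error of the miR-29 probes and a dotted line at a mean log2 intensity of 5. MiR-29a lies at -0.19 and miR-29b at 0.13, within the spread of other probes of like signal.

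For miR-29a, differences between animals were larger than the mean difference between segments. The standard deviation between sheep of the mean log2 intensity of both segments was 0.41. The within-sheep change had a mean of -0.19 and a standard deviation of 0.15. For miR-29b these values were 0.33, 0.13 and 0.25. Among the 59 miRNAs with a mean log2 intensity of at least 5, the median standard deviation of the change was 0.34, and 4 had a smaller one than miR-29a, while 18 had a smaller one than miR-29b. The animal-to-animal spread was not unusual, with 31 of the 59 below miR-29a and 25 below miR-29b.

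Dividing miR-29a by miR-29b on the same array removes any factor that scales both probes alike. Since probes differ in how strongly they hybridise, the level of this ratio says nothing about how much of each miRNA was present, and only its differences between arrays were compared. The ratio in the normal segments was 1.91, 1.55, 2.20, 1.69 and 1.76 for sheep 2, 3, 6, 7 and 10. In the fibrotic segments, in this order, it was 1.26, 1.49, 1.70, 1.41 and 1.40. It was lower in the fibrotic segment of 5 of 5 sheep, with log2 changes of -0.59, -0.057, -0.37, -0.26 and -0.33. The ratio of sheep 3 was nearly the same in both segments, where both members were lower by a similar factor, and the other 4 sheep had larger changes. The groups overlapped by 1 fibrotic array, that of sheep 6, which lay above the normal arrays of sheep 3 and 7.

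**Figure D3:**
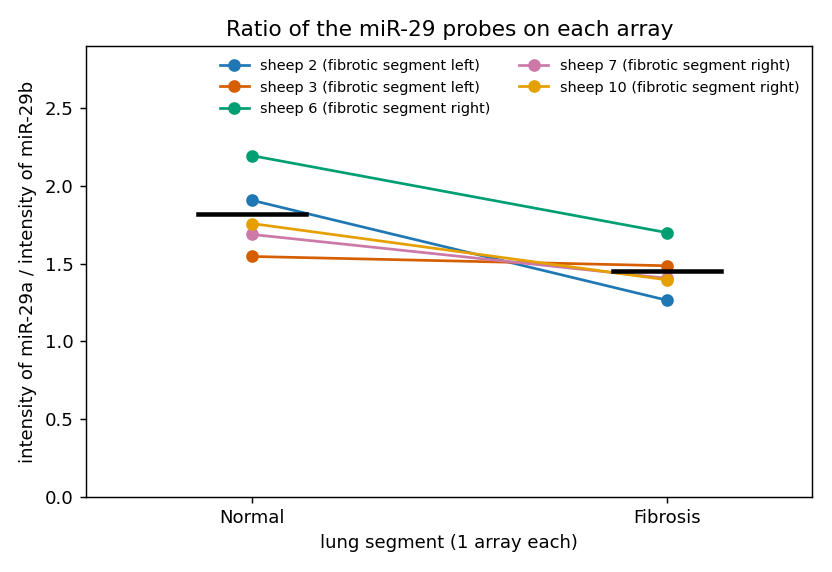
Ratio of the miR-29a to the miR-29b intensity on each of 10 arrays, with lines joining the segments of 1 sheep and black bars for the mean of 5. All 5 lines slope down from normal to fibrotic, steeply in sheep 2 (1.91 to 1.26) and barely in sheep 3 (1.55 to 1.49).

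Over 5 sheep the normal segments had a mean ratio of 1.82 with a standard deviation of 0.247, and the fibrotic ones a mean of 1.45 with a standard deviation of 0.161. The mean change of the log2 ratio was -0.32 with a standard error of 0.087 over the sheep, or 0.799-fold. The exact sign-flip test gave a two-sided p of 0.0625, again the smallest that 5 sheep allow, so that this test cannot place the change past a threshold of 0.05. The within-sheep changes of the log2 ratio had a standard deviation of 0.19, and the sheep means of both segments one of 0.15. A difference and a mean of the same arrays do not have like spreads, so these values cannot be ranked against each other.

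Such a change of a ratio in 1 direction was not rare on this array. Among the 1711 pairs that can be formed from the 59 miRNAs with a mean log2 intensity of at least 5, the log2 ratio went the same way in all 5 sheep for 189 (11.0%), and 741 had a mean change larger in size than that of miR-29a to miR-29b. Of 34 pairs of probes whose names differ only by the family letter, 3 went the same way in all 5 sheep, namely miR-29a with miR-29b, let-7a with let-7f and miR-200b with miR-200c. The mean change of the miR-29 pair was the largest in size of the 34, ahead of 0.31 for miR-200a to miR-200c. The mean log2 ratio change was -0.17 for let-7a to let-7f and 0.22 for miR-200b to miR-200c. With bleomycin assigned to all left segments these turned to 0.023 and -0.058, each necessarily with sheep in both directions. The pairs share members and the comparison of pairs is a description, without a test.

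**Figure D4:**
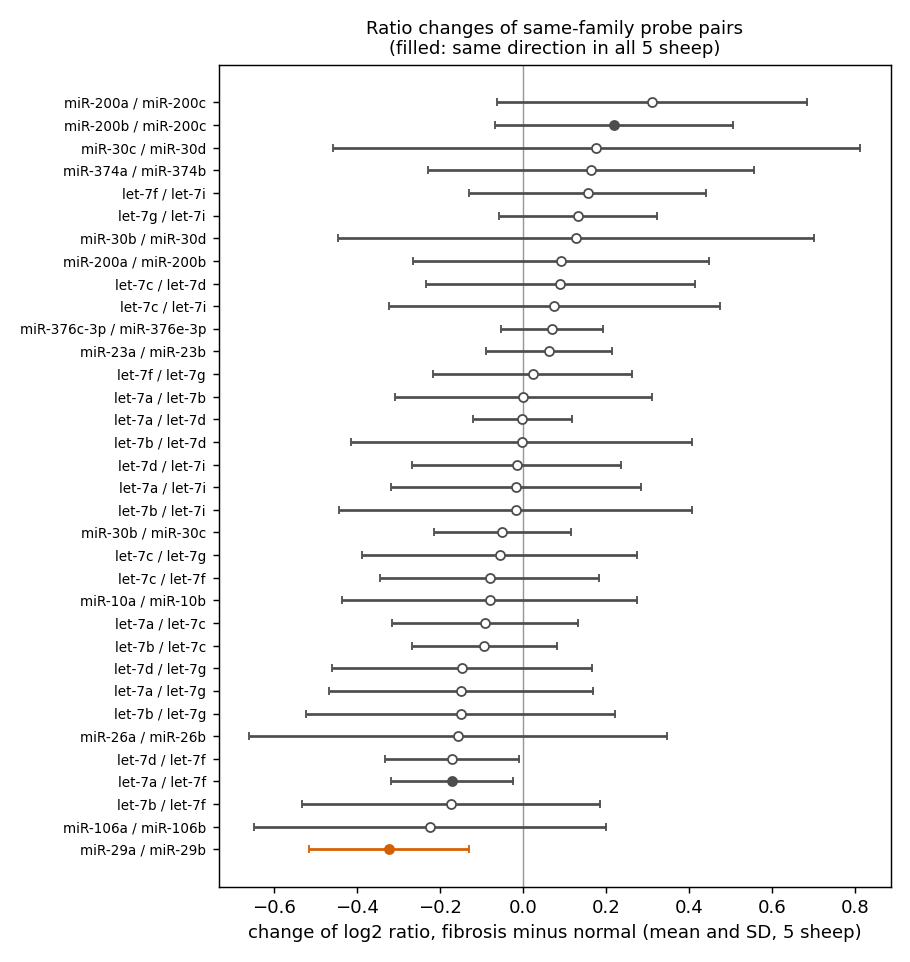
Change of the log2 intensity ratio of the fibrotic against the normal segment for 34 pairs of probes of the same family, as mean (point) and standard deviation (bar) over 5 sheep, with filled points where all 5 sheep went 1 way. MiR-29a to miR-29b stands at one end with -0.32, and most other family pairs lie near 0 with mixed directions.

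Both member values depended on how arrays were set on a common scale, while their ratio is unaffected by any scaling that shifts a whole array. Centring arrays on the miRNA median moved the median change of all miRNAs to -0.18 and centring on the control probes moved it to 0.39. Under the first, miR-29a was at -0.35, below the median of all, and miR-29b at -0.023, below 0 but above that median. Under the second they were at 0.22 and 0.54, on either side of the median of all. Quantile normalization, which replaces each value by that of its rank, put miR-29a at 0.021 and miR-29b at 0.080 and left a mean change of the log2 ratio of -0.059, lower in only 2 of 5 sheep. Between 3 and 12 other miRNA probes lay between both members on an array, and the quantile-normalized step of each member depends on them. Relative to oar-miR-103, the reference miRNA of the study's PCR, miR-29a was lower in 4 of 5 sheep and miR-29b in 2.

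The choice of which segment counted as bleomycin-infused changed the direction of all 3 values. With the labels kept and side as a covariate, miR-29a was at -0.20, miR-29b at 0.13 and the log2 ratio at -0.32. When bleomycin was instead assigned to all left segments, as the methods describe, the mean log2 change was 0.0052 for miR-29a, -0.058 for miR-29b and 0.063 for the ratio. The ratio was then necessarily lower in 2 of 5 sheep, since the changes of sheep 6, 7 and 10 are reversed. In sheep 2 and 3 alone, where labels and methods name the same segment, the mean changes were -0.23 for miR-29a, 0.093 for miR-29b and -0.33 for the ratio, and the last of these came mostly from sheep 2.

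**Figure D5:**
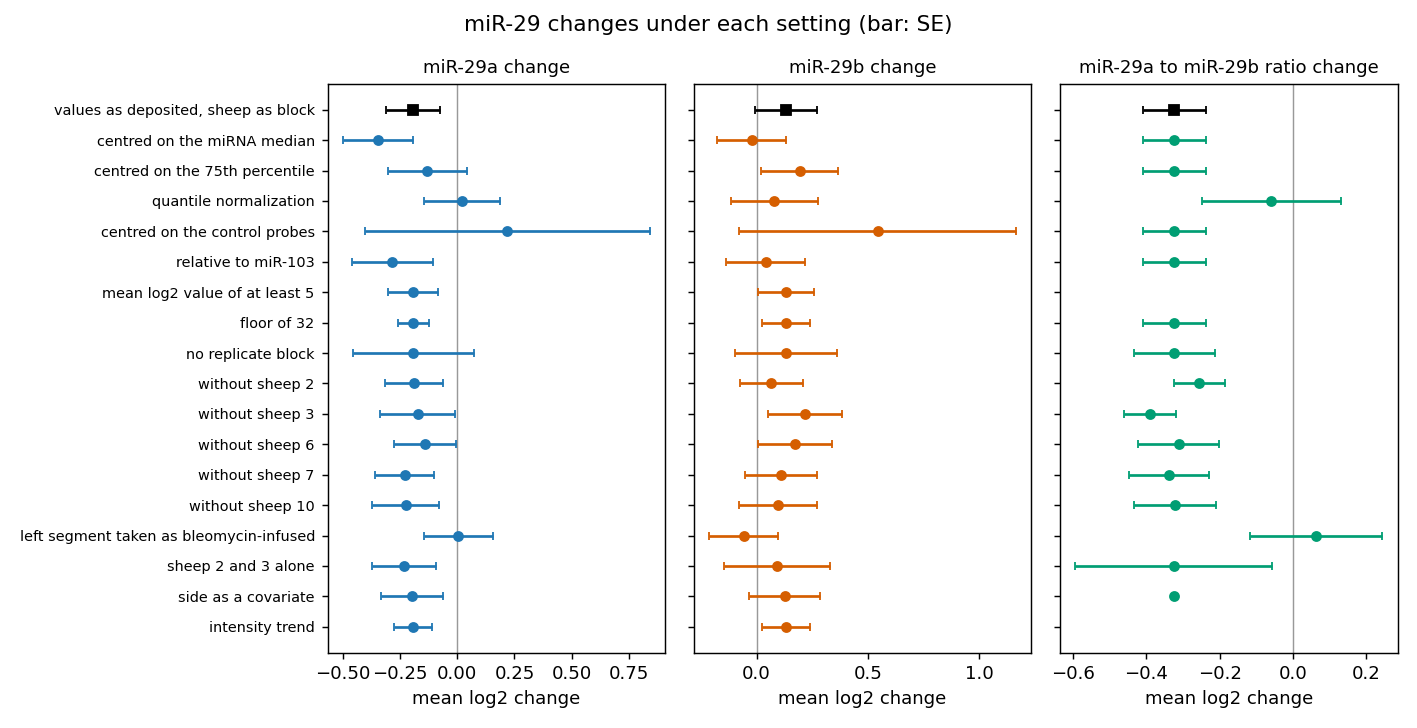
Mean log2 change of miR-29a, miR-29b and their log2 ratio (fibrotic minus normal segment) under each setting other than the methods' t-test, with bars for the standard error and a black square for the values as deposited. The bars of the members come from limma and those of the ratio do not, so their lengths are not alike in kind. The ratio stays at -0.32 under every whole-array scaling, moves to -0.059 under quantile normalization and to 0.063 with bleomycin assigned to all left segments. The panels have separate scales, the dim-miRNA filter and the intensity trend have no ratio value and the ratio with side as a covariate has no bar.

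Across the 10 arrays the levels of miR-29a and miR-29b went up and down together. Pearson's r of their log2 intensities was 0.81, and 0.61 over the 5 within-sheep changes. For both members, the same other miRNAs were the most alike among the 58 compared by r over the 10 arrays. For miR-29a these were oar-miR-494-3p (r = 0.90) and oar-miR-19b (r = 0.83), followed by miR-29b. For miR-29b they were oar-miR-19b (r = 0.84) and oar-miR-494-3p (r = 0.83), followed by miR-29a. Over the 5 changes, r with oar-miR-494-3p was 0.89 for miR-29a and 0.47 for miR-29b, and with oar-miR-19b 0.55 and 0.58. The order over the changes was not the same, with oar-miR-27a at 0.93 for miR-29a and 0.70 for miR-29b. At the other end oar-let-7a had the lowest r over the 10 arrays with both, -0.86 for each, and -0.60 and -0.83 over the changes. These correlations describe 10 arrays that come from 5 animals and share their scaling, and r of the 5 sheep means of miR-29a and miR-29b was 0.95.

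Other miRNAs with a known part in fibrosis were read beside the family. Of 14 listed miRNAs that are known to restrain fibrosis, 13 were measured, and limma called 0 of them. Of the 13, 9 had a mean change below 0 and 4 above, with a median of -0.20. The median was -0.021 for all 152 miRNAs and -0.066 for the 59 with a mean log2 intensity of at least 5. Changes below 0 were therefore the commoner ones there too. With arrays centred on the control probes 1 was below 0 and 12 above, while the list median of 0.21 lay below the 0.39 of all miRNAs. The largest mean changes were those of oar-miR-133 (-0.86 ± 0.44, SE), a muscle miRNA, of the epithelial miRNAs oar-miR-200a (0.67 ± 0.28, SE) and oar-miR-200b (0.58 ± 0.17, SE), and of oar-miR-30d (-0.38 ± 0.33, SE). Like miR-29a, 2 of the 13 were lower in all 5 sheep, oar-miR-26a (-0.22) and oar-miR-30a-5p (-0.25), against 8 of the 152 miRNAs (5.26%). In addition, oar-miR-200b was higher in all 5. Of 9 listed miRNAs that are known to promote fibrosis, 4 were measured, and all 4 had a mean change above 0 with a median of 0.31. A change above 0 held for 2 of 4 when the miRNA median was the centre of each array, with medians of 0.15 for the list and -0.18 for all miRNAs. It held for 3 of 4 after quantile normalization (medians 0.18 and -0.019) or relative to oar-miR-103 (0.21 and -0.12). Of these 4, 2 were higher in all 5 sheep, against 13 of the 152 miRNAs (8.55%). These were oar-miR-21 (0.73 ± 0.25, SE), an abundant miRNA of activated fibroblasts, and oar-miR-199a-3p (0.49 ± 0.17, SE). With bleomycin assigned to all left segments, 3 of the 13 restraining miRNAs were below 0 and 10 above, with a median of 0.045 against -0.045 for all miRNAs. Of the 4 listed promoters, 2 were below 0 and 2 above. Members that went 1 way in all 5 sheep by the labels could not do so here, because only sheep 6, 7 and 10 are reversed. No other member of either list did so. The changes were 0.18 for oar-miR-21, -0.10 for oar-miR-199a-3p, 0.045 for oar-miR-200b, 0.12 for oar-miR-26a and -0.12 for oar-miR-30a-5p. Those of oar-miR-133, oar-miR-200a and oar-miR-30d were 0.54, 0.21 and 0.13, and those of oar-miR-221 and oar-miR-27a were 0.077 and -0.011. The study named several of these miRNAs from the same samples, so the counts are not independent of its selection.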

How the data were processed

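Lung RNA labelled with Cy3 was hybridised by a service provider to a custom ovine array. Each probe has 1 deposited intensity on each array, described as background corrected and averaged over replicate spots. The methods mention a log2 transformation, but the deposited intensities are linear. No scaling between arrays is named, and since the miRNA sums of the arrays are nearly equal, whether the values were scaled before deposit is not known.

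Intensities were set to at least 1, which affected 14.8% of miRNA values and neither miR-29 probe, and log2 transformed. Limma 3.58.1 in R 4.3.3 fitted condition and sheep for all 152 miRNAs, with Benjamini-Hochberg adjustment over the whole array. The fit was tested on simulated data. Single values were compared by exact permutation of the signs of the 5 within-sheep changes (two-sided). The number of arrays limits the precision.

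Segments were paired because they came from 1 animal. The correlation of their deviations from the condition means was 0.34, 0.90, 0.40, -0.67 and 0.56 for sheep 2, 3, 6, 7 and 10. Alternatives were other scalings, an intensity trend, the methods' t-test (here over sheep, not within each sheep), no block, other codings of the side, dim miRNAs filtered out or floored at 32, and each sheep left out in turn.

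Members and lists were chosen with earlier results of these data known. By rule the text names both members, the 3 most and the 1 least correlated miRNAs with a mean log2 intensity of at least 5, and list members with the largest changes. Family pairs, and list members named for a shared direction in all sheep, were chosen after their values were seen, as was the left coding of all miRNAs other than miR-29. The same holds for oar-miR-27a where correlations of changes are given.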

Additional observations from a re-analysis of the deposited data

How the results depend on the processing

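Of 19 alternatives, miR-29a kept its direction and stayed short of an adjusted p of 0.05 in 16, and miR-29b in 17. Several of these could not turn the direction of either member, so their agreement does not show that it is stable. The filter for dim miRNAs, the higher floor, the fit without a block, the intensity trend and both forms of the t-test left each mean change as it was. In them only the standard error and the adjusted p could differ. MiR-29a turned to 0.021 after quantile normalization, 0.22 relative to the control probes and 0.0052 with bleomycin assigned to all left segments. MiR-29b turned to -0.023 relative to the miRNA median and -0.058 with the left segments. The adjusted p, from limma or the methods' t-test run over the sheep, lay between 0.380 and 0.987 for miR-29a and between 0.478 and 0.942 for miR-29b. Leaving out 1 sheep gave -0.23 to -0.14 for miR-29a, 0.067 to 0.22 for miR-29b and -0.39 to -0.26 for the log2 ratio. Without sheep 2, miR-29b was at 0.067, and without sheep 3 at 0.22.

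The change of the ratio, 15 alternatives in all, was 0.063 with the left segments and -0.059 after quantile normalization (exact sign-flip permutation, two-sided, p = 0.75 and p = 0.875). With no replicate block, thus with arrays treated as unpaired, the change was the same -0.32 and the two-sided exact permutation test over 10 arrays gave p = 0.0238, which treats both segments of 1 animal as independent. The block changed no other call, and the unpaired limma fit also called 0 miRNAs. The count of miRNAs at an adjusted p under 0.05 was 1 with arrays centred on the control probes and 0 in the other 18 alternatives. The cause of these differences was not tested. Intensities of both members were far above the floor of 32, and their error on a single array is unknown.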
